A study of Mus musculus with 8 samples.

Results

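The genes described here are 10 assembly factors of cytochrome oxidase, the terminal enzyme of the respiratory chain, taken by symbol from a table of 46477 gene rows. All 10 symbols were found in the table. The series is an RNA-seq study of the mouse melanoma line B16-F10, with 8 libraries and 1 library per condition. Before RNA isolation the cells spent 24 hours on the matrix that remained once smooth muscle cells (SMCs) had been lysed. Those SMCs had first received siRNA for 72 hours and then a further 72 hours in SFM or TCM, the abbreviations of the labels for the 2 media. The series title names tumor conditioned medium of B16-F10, which TCM is taken to be, and SFM is not spelled out. The 8 groups were SFM siNT, SFM siKLF4, SFM siFN, SFM siKLF4-siFN, TCM siNT, TCM siKLF4, TCM siFN and TCM siKLF4-siFN. siKLF4-siFN means both siRNAs. The siRNA and the media were thus given to the SMCs and not to the melanoma cells that were sequenced.

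The list was put together because Pet117 and Pet100 were higher on TCM matrix, and Pet117 also with siKLF4, in earlier results of these libraries. Their medium values and the siKLF4 value of Pet117 are therefore given as descriptions without a test. The other 8 genes complete the set by function.

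Cytochrome oxidase, also called complex IV, passes electrons from cytochrome c to oxygen. Its catalytic core is encoded in mitochondrial DNA, while its other subunits and all of its assembly factors come from the nucleus. The assembly factors are not part of the finished enzyme: they make heme a, carry copper to the core, hold core subunits in the membrane and join the modules. Loss of several of them, such as Surf1, Sco2, Cox10 or Cox15, causes human cytochrome oxidase deficiency.

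Values are FPKM, which is scaled by gene length and library depth, so levels can be roughly compared between genes. For members that share exons with other genes, described below, levels also depend on how shared reads were counted. Depth estimated from the steps of low FPKM values was 11600000 to 23100000 reads, and is approximate. Differences were computed on log2(FPKM + 1) where the mean over the libraries was 1 or more. On this scale the change of low genes is understated. Of 8 melanocyte markers 7 passed this minimum (all but Mitf). Of 10 smooth muscle markers 1 did (Des, mean 1.07), and Acta2 and Myocd were listed at 0 in every library. None of 8 fibroblast markers passed. Of 8 endothelial and 8 leukocyte markers, 1 each did (Eng, mean 4.74, and Cd68, mean 2.93). The summed FPKM of 20 mitosis genes was 8.81 in SFM siKLF4-siFN, 9.54 in SFM siFN and 23.8 in TCM siNT, against 78.1 to 83.1 in the other libraries. TCM siFN and TCM siKLF4-siFN were the closest of 28 pairs, with an SD of their log2 differences of 0.173 over genes. The most distant pair, SFM siKLF4-siFN and TCM siFN, had 0.638. SFM siKLF4-siFN was in every pair with an SD of 0.525 or more.

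The 10 genes were expressed at low to moderate levels. Cox17, a copper chaperone of the intermembrane space, was highest with a mean of 9.74, followed by Surf1 at 8.22 and Sco2 at 4.71. Cox20 had a mean of 2.73, Pet117 1.93, Cox15 1.85, Pet100 1.65, Sco1 1.49 and Cox11 1.23. Cox10 was lowest, at 0.231. It was the only member below the minimum, which left 9 members in the tests. Neighbours in this order overlapped in their range over libraries, except that every Cox10 value lay below every Cox11 value. Between libraries, Pet117 varied most, with its highest value 17.2 times its lowest, and Cox15 least, at 1.19 times. Cox20 spanned 3.04 times, Sco2 2.43 times and Pet100 2.18 times.

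**Figure D1:**
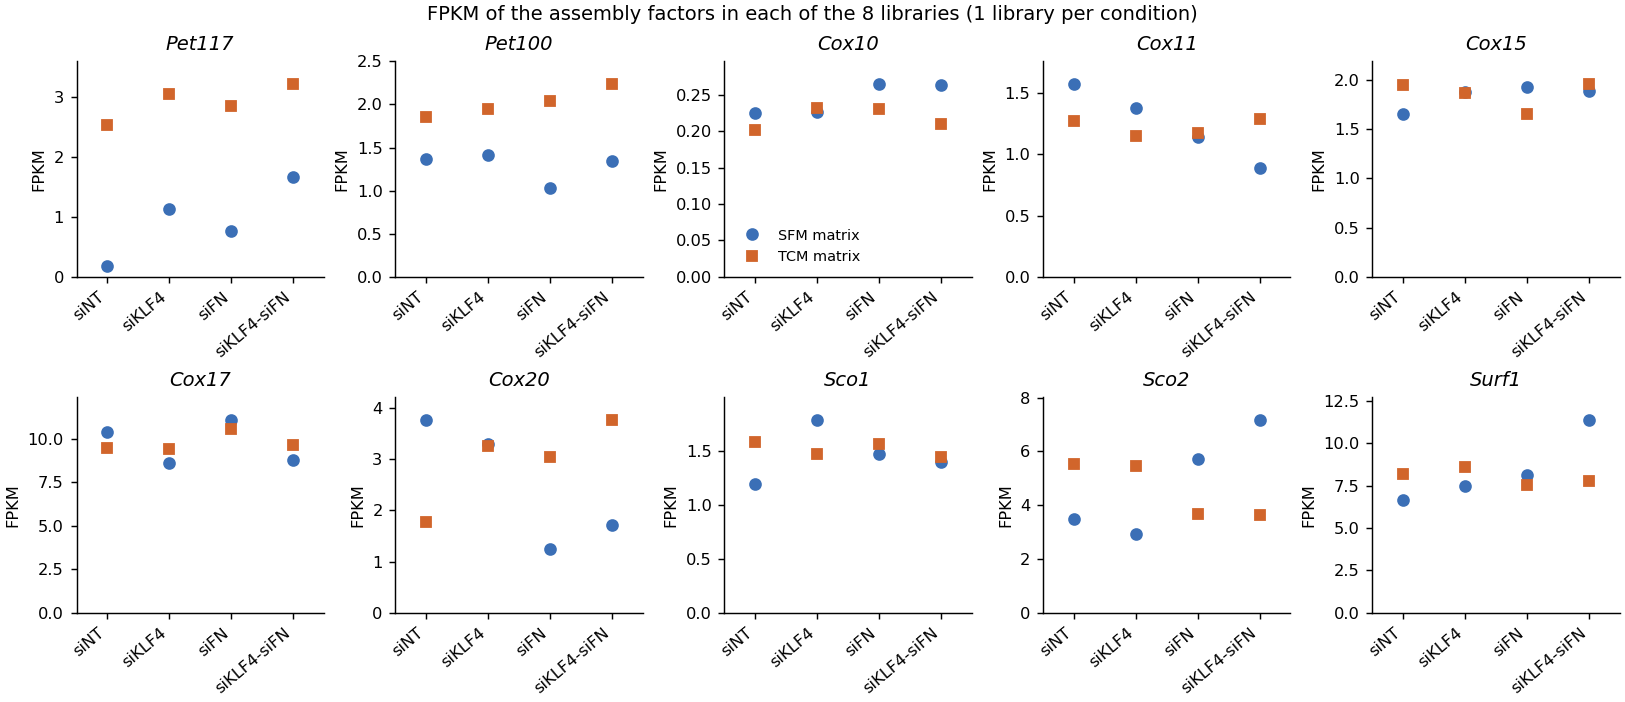
FPKM of each assembly factor (linear axis from 0, its own scale per gene) in the 8 libraries, by siRNA given to the SMCs; circles are SFM matrix and squares TCM matrix, each point 1 library. All 4 TCM values of Pet117 (2.54 to 3.22) and Pet100 (1.85 to 2.24) lie above all 4 SFM values, while Cox20 and Sco2 cross over between the treatments without and with siFN.

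Pet117 encodes a small mitochondrial protein that in yeast binds the heme a synthase Cox15. On SFM matrix its FPKM was 0.187 with siNT, 1.13 with siKLF4, 0.774 with siFN and 1.67 with both siRNAs. TCM matrix gave 2.54 with siNT, 3.05 with siKLF4, 2.86 with siFN and 3.22 with both. The TCM libraries were all higher than the SFM libraries and also closer together, with 2.92 ± 0.292 (SD, n = 4 libraries with different siRNA) against 0.941 ± 0.622. TCM was 13.6 times SFM with siNT, 3.70 times with siFN, 2.69 times with siKLF4 and 1.93 times with both. The medium difference was 1.07 ± 0.15 (SE, log2).

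The lowest of these values correspond to very few reads allotted to Pet117, which shares its exons with another gene, as described below. For the annotated transcript of 693 nucleotides, the estimated depth gives on SFM matrix about 3 reads with siNT, 9 with siKLF4, 11 with siFN and 15 with both siRNAs. On TCM matrix it gives 25 to 44 reads. The fold for siNT thus rests on a handful of allotted reads. How many reads covered these exons in all is not known here. Pet117 passed the expression minimum through its TCM values, since its SFM mean was below 1.

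The 4 siRNA treatments stood in the same order on both matrices. Pet117 was lowest with siNT, then came siFN, then siKLF4, and siKLF4-siFN was highest. This order was picked out after the values were seen and was present in 1.19% of all genes tested. Nothing is read from it, since Pet117 was chosen for being higher with siKLF4. On SFM matrix siFN and siKLF4 also rest on about 11 and 9 allotted reads. Pet117 was higher with siKLF4 in 4 of 4 matched pairs, by 0.13 to 0.85 on the log2 scale, with a fitted value of 0.44 ± 0.15 (SE). With siFN it was also higher in 4 of 4 pairs, by 0.06 to 0.58. The share of all genes with such pairs was not computed, so nothing is read from these counts. The fitted siFN difference was 0.27 ± 0.15 and the medium by siFN interaction -0.36 ± 0.27, between -0.63 and -0.09 when 1 library was left out. Since Pet117 entered the fit through its TCM values, both are given without a test.

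Pet117 lies at chr2:144368996-144373721 on the plus strand (mm10, GENCODE M21). Its 693 exonic nucleotides all fall within exons of Kat14, a histone acetyltransferase gene on the same strand, listed in the table under its older symbol Csrp2bp. No exonic base belongs to Pet117 alone, so its FPKM depends on how reads were divided between the 2 genes, and that rule is not given in the sources used here. Csrp2bp stood on SFM matrix at 1.67 with siNT, 1.67 with siKLF4, 1.67 with siFN and 2.14 with both siRNAs. TCM matrix gave 1.91, 2.18, 1.91 and 1.99 in the same order of siRNA. Its range of 1.67 to 2.18 was thus far narrower than that of Pet117. Its medium difference was 0.11 ± 0.09 (limma, adjusted p = 0.803). The part of this division in the Pet117 values was not tested.

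**Figure D2:**
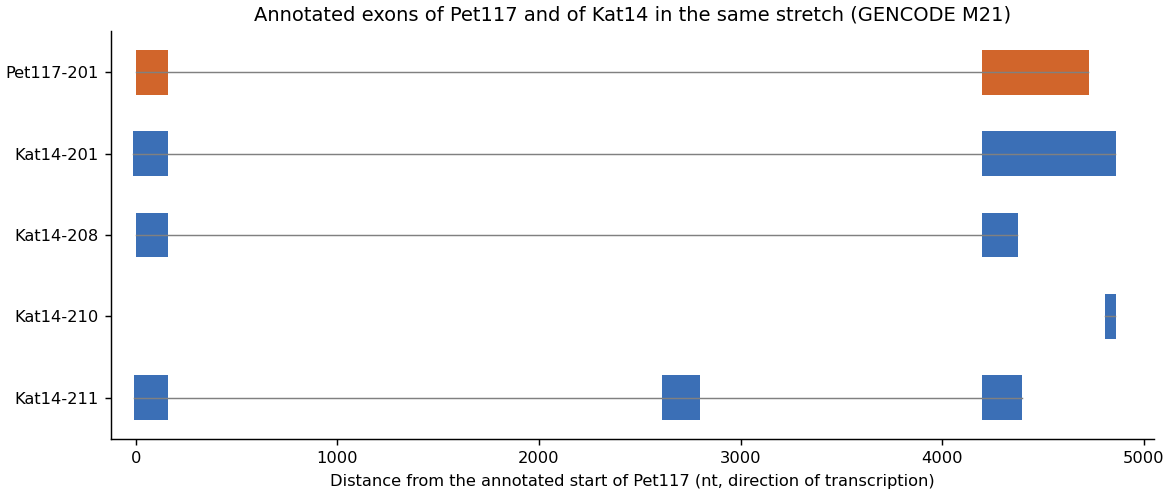
Exons (boxes) of the Pet117 transcript and of Kat14 transcripts that reach into the same stretch, by distance in nucleotides from the annotated start of Pet117. Both Pet117 exons, of 162 and 531 nucleotides, are covered by exons of Kat14.

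Pet100, a small inner membrane protein needed to build cytochrome oxidase, was also higher on TCM matrix in every pair. On SFM matrix its FPKM was 1.37 with siNT, 1.41 with siKLF4, 1.03 with siFN and 1.35 with both siRNAs. The TCM libraries had 1.85 with siNT, 1.95 with siKLF4, 2.04 with siFN and 2.24 with both. The groups did not overlap, and TCM was 1.35 times SFM with siNT, 1.38 times with siKLF4, 1.98 times with siFN and 1.66 times with both. The medium difference was 0.40 ± 0.09 (SE, log2).

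No overlap with TCM higher was thus seen in 2 of the 9 members tested, against 3.63% of all genes tested. Since these genes were chosen by that difference, nothing is read from the count. None of the 9 had all TCM values lower (1.82% of genes), and none separated by siKLF4 (0.448% of genes higher, 0.159% lower) or by siFN (0.275% higher, 0.679% lower). The Pet100 siKLF4 difference was 0.09 ± 0.09 (limma, adjusted p = 1) and its siFN difference -0.01 ± 0.09 (adjusted p = 0.993), and the latter turned positive when libraries were scaled to a common median (0.01). Its medium by siFN interaction was 0.24 ± 0.15 (adjusted p = 0.292).

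Pet100 lies at chr8:3621548-3625848 on the plus strand. Of its exonic bases, 52.6% overlap Pcp2 on the other strand, a gene listed at 0 in every library. Xab2, whose start is close to that of Pet100 on the other strand, ranged from 3.27 to 5.36, with a medium difference of 0.19 ± 0.14 (limma, adjusted p = 0.802).

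**Figure D3:**
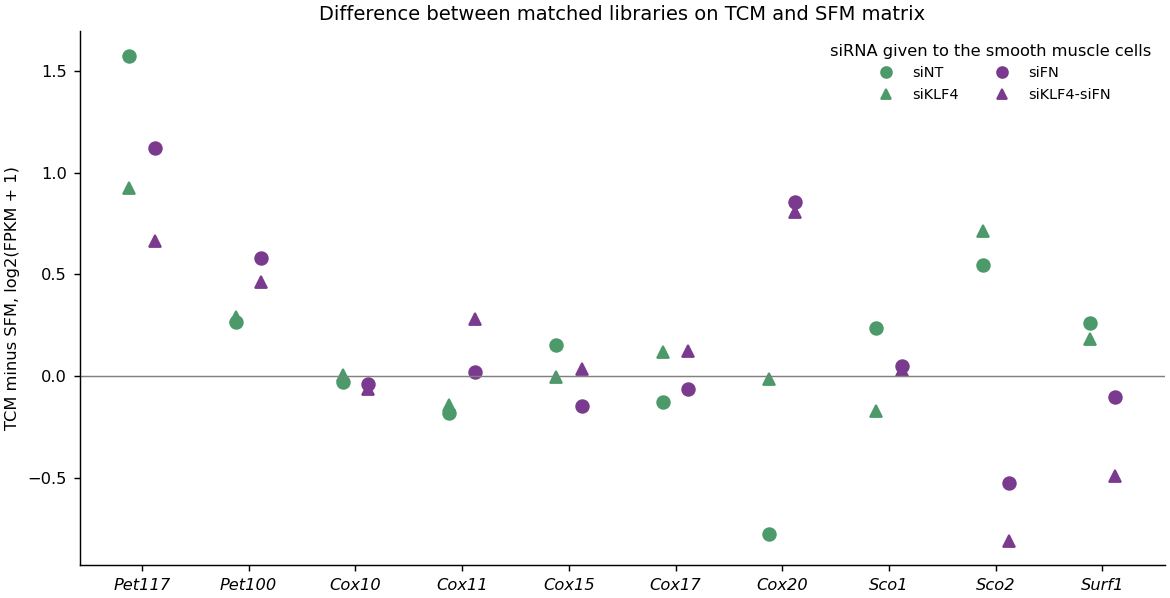
TCM minus SFM difference in log2(FPKM + 1) for each assembly factor, 1 point per siRNA treatment (circles without and triangles with siKLF4, green without and purple with siFN). The 4 points of Pet117 (0.66 to 1.58) and Pet100 (0.27 to 0.58) lie above 0; those of Sco2 change sign with siFN.

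The sequences just before the start sites of Pet117, Pet100 and Cox20 are shown because results described here turn on these genes. The window of Sco2 lies mostly in annotated exons and is not shown. The sequences come from RefSeq on GRCm38.p6 and are read 5′ to 3′ on the coding strand. Bases that GENCODE places in an exon were left off. Capitals mark matches, on either strand, to 6 motifs: the cyclic AMP response element (CRE, TGACGTCA), the ETS motif (CCGGAAG), the NRF1 motif in its palindromic form, the YY1 motif (AAGATGGC), the CCAAT box (CCAAT) and the GC box (GGGCGG). None of the marked matches overlaps another.
Pet117, chr2:144368833-144368982: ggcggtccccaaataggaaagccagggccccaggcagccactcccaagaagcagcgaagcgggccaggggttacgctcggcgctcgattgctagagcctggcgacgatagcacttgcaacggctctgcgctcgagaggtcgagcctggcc
Pet100, chr8:3621401-3621547: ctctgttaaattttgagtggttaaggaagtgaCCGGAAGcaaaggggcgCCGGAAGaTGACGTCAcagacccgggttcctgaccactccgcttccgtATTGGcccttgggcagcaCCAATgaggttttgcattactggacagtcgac
Cox20, chr1:178319003-178319129: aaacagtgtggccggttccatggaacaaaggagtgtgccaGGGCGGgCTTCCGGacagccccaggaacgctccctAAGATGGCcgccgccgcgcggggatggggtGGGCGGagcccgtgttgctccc
The Pet117 stretch, which ends just before the annotated start of Kat14, held none of the 6. Pet100 had ETS matches that begin at -118 and -101 from the RefSeq start, a CRE match at -93 and CCAAT boxes at -53 and -35. Cox20 had GC boxes at -110 and -45, an ETS match at -103 and a YY1 match at -75. Of the 9 members with a promoter entry, 4 had the ETS motif within 250 bases before the start (Pet100, Cox10, Cox20 and Sco1), against 7.83% of 27025 genes in the promoter table. The CRE was found in 1 member and 1.77% of genes, the YY1 motif in 1 and 1.83%, the CCAAT box in 2 and 37.5%, and the GC box in 7 and 35.4%. The NRF1 motif was in no member and in 0.877% of genes. These are letter matches, and no binding was measured.

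Cox20 and Sco2 both act on the Cox2 subunit of the core, Cox20 as its chaperone and Sco2 in the delivery of its copper. Their siFN pairs had opposite signs in 4 of 4 cases, while their siKLF4 pairs on SFM matrix had the same sign (-0.15 and 0.28 for Cox20, -0.19 and 0.28 for Sco2, log2). The interactions of the 2 genes, given below, have opposite signs, which makes such siFN pairs likely. Nothing is read from this count. On SFM matrix the FPKM of Cox20 was 3.76 with siNT, 3.29 with siKLF4, 1.24 with siFN and 1.71 with both siRNAs. The TCM values were 1.78 with siNT, 3.25 with siKLF4, 3.05 with siFN and 3.75 with both. The 3 low libraries were TCM siNT and the SFM libraries with siFN. For the 883 exonic nucleotides of Cox20, the estimated depth gives only about 20 to 23 reads in each of these. The remaining libraries had about 34 to 77. The low side of the Cox20 differences thus rests on few reads. With siFN Cox20 was lower on SFM matrix and higher on TCM matrix, with and without siKLF4. On TCM matrix siFN alone (3.05) still lay below siKLF4 alone (3.25).

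On SFM matrix the FPKM of Sco2 was 3.49 with siNT, 2.95 with siKLF4, 5.72 with siFN and 7.16 with both siRNAs. On TCM matrix the values were 5.55 with siNT, 5.47 with siKLF4, 3.67 with siFN and 3.66 with both. With siFN it was higher on SFM matrix and lower on TCM matrix, with and without siKLF4. On TCM matrix the siKLF4 pairs of Sco2 differed by -0.02 and -0.003 on the log2 scale.

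The medium by siFN interaction asks whether the TCM minus SFM difference was another with siFN than without. For Cox20 this difference was -0.39 without siFN, the mean of unlike pairs (-0.78 with siNT and -0.01 with siKLF4), and 0.83 with siFN. The interaction was 1.23 ± 0.26 (SE, log2; limma, adjusted p = 0.0444). For Sco2 the difference was 0.63 without siFN and -0.67 with it, an interaction of -1.30 ± 0.21 (adjusted p = 0.0385). Thus 2 of 9 members passed, against 7.17% of the 6917 genes tested, 3.83% above 0 and 3.34% below 0. Pet117, whose interaction is given without a test, is counted among the 9. At an unadjusted p under 0.05 there were 3 of 9 members, with Surf1 as the third, against 33.6% of genes. The median interaction was 0.01 over the members and -0.06 over all genes.

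Both calls stood close to the threshold. They held without SFM siFN, a fit in which far more of all genes passed (given at the end), and without TCM siKLF4. Leaving out any 1 of the other 6 libraries ended both, with an adjusted p of 0.106 to 0.154 for Cox20 and 0.0658 to 0.136 for Sco2. The interaction lay between 0.97 and 1.49 for Cox20 and between -1.47 and -1.12 for Sco2 over all 8 such fits. With a pseudocount of 0.1 the adjusted p was 0.0537 for Cox20 and 0.0502 for Sco2, and without a filter 0.143 and 0.123.

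Mitosis genes moved with the same contrast: 14 of the 20 listed genes were past the expression minimum, and all 14 passed above 0, with a median of 2.31. Of all genes tested, 3.83% passed above 0. The list was chosen with earlier results of these data known. Some of its genes were past the minimum through the libraries where they are high, such as Mki67 (mean 1.025, but 0.0116 in SFM siKLF4-siFN). Nothing is therefore read from the count. The centred log2 mean of the 14 genes on SFM matrix was 0.61 with siNT, 0.66 with siKLF4, -1.22 with siFN and -1.27 with both siRNAs. TCM matrix gave -0.61, 0.55, 0.63 and 0.63 in the same order of siRNA. The libraries with the 3 lowest mitosis means were thus those with the 3 lowest Cox20 values, and they held the 3 highest Sco2 values, with TCM siKLF4 close behind. The part of cell division in these 2 results was not tested.

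Both genes also share exons with neighbours. Cox20 lies at chr1:178319130-178322693 on the plus strand, and 91.1% of its exonic bases overlap Hnrnpu, an RNA-binding protein gene on the other strand. Hnrnpu was lowest in SFM siKLF4-siFN (6.81) and between 12.8 and 16.6 elsewhere, with an interaction of 0.90 ± 0.36 that did not pass (limma, adjusted p = 0.137). Sco2 lies at chr15:89371637-89373846 on the minus strand. Of its exonic bases, 68.3% overlap Tymp on the same strand and 66.2% overlap Ncaph2 on the other, which leaves 103 of 1253 to Sco2 alone. Tymp was at 0.206 to 0.560 and Ncaph2, a condensin II subunit, at 6.07 to 8.35. The Ncaph2 interaction was -0.16 ± 0.21 (adjusted p = 0.605). The strand setting of the counting is not given in the sources used here, so reads of these overlapping genes may be mixed, and their part was not tested.

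**Figure D4:**
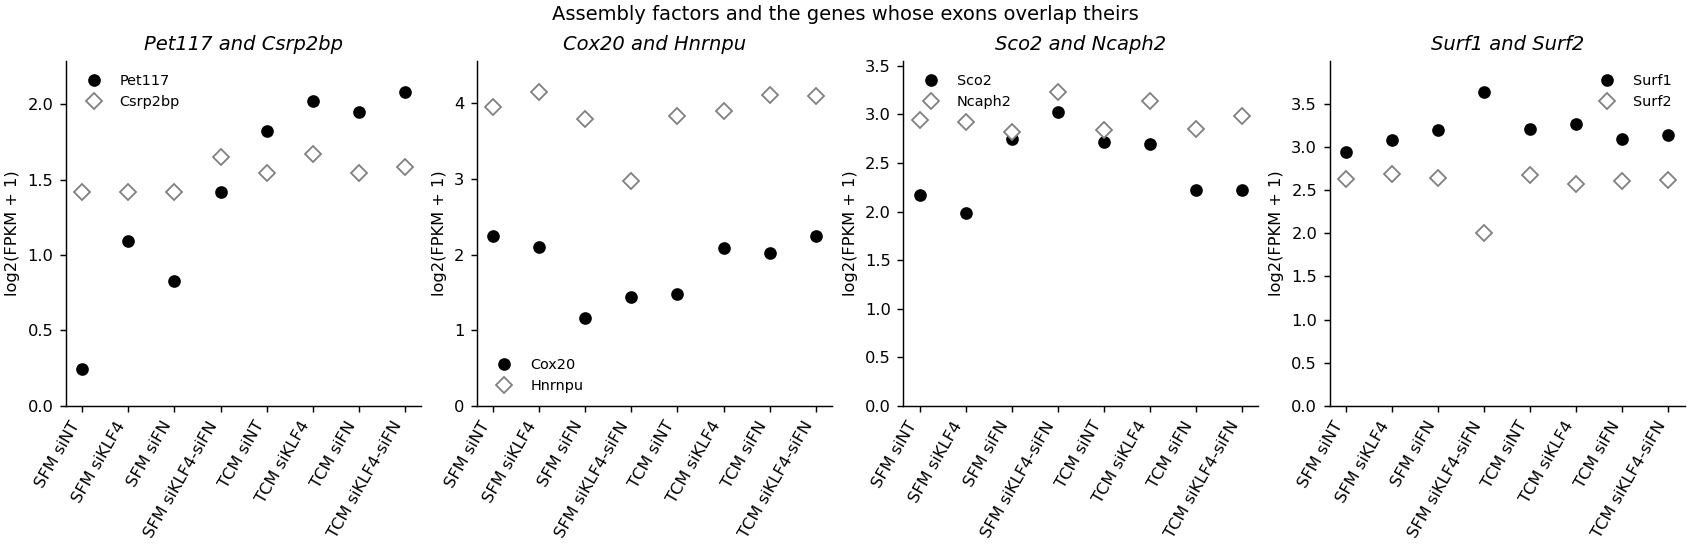
log2(FPKM + 1) in the 8 libraries of 4 assembly factors (filled circles) and of a gene whose exons overlap theirs (open diamonds), 1 point per library. Csrp2bp, the older symbol of Kat14, stays between 1.67 and 2.18 FPKM while Pet117 runs from 0.187 to 3.22; Hnrnpu and Surf2 have their lowest value in SFM siKLF4-siFN.

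Surf1 takes part in the heme a step of Cox1 assembly. On SFM matrix its FPKM was 6.68 with siNT, 7.47 with siKLF4, 8.16 with siFN and 11.4 with both siRNAs. TCM matrix gave 8.20 with siNT, 8.60 with siKLF4, 7.52 with siFN and 7.79 with both. SFM siKLF4-siFN stood above all others. Its medium and siFN pairs had the signs of those of Sco2, with a TCM minus SFM difference of 0.22 without siFN and -0.30 with it. With siKLF4 Surf1 was higher in 4 of 4 pairs (0.04 to 0.43, log2), and Sco2 in 1 of 4, with no share over all genes computed. The interaction of -0.52 ± 0.21 did not pass (limma, adjusted p = 0.142), and it was -0.70 without SFM siFN.

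Surf1 lies at chr2:26913381-26916530 on the minus strand. It overlaps the start of Surf2, a gene read from the other strand, in 7.82% of its exonic bases. Surf2 was lowest where Surf1 was highest, in SFM siKLF4-siFN, and lay between 4.94 and 5.44 elsewhere. Over the 8 libraries Pearson's r was 0.830 between Surf1 and Sco2, -0.773 between Cox20 and Sco2, and -0.924 between Surf1 and Cox11. Pet117 and Pet100 had an r of 0.829. All of these points share the same libraries, and r is given as a description. SFM siKLF4-siFN, the library most distant from others, held the highest Surf1 (11.4) and Sco2 (7.16) values and the lowest Cox11 value (0.887). No r was computed without it.

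Copper also reaches the core through Cox17, Sco1 and Cox11. Cox17, which hands copper to the Sco proteins and to Cox11, ranged from 8.59 to 11.1 with a median of 9.55 over the 8 libraries. It was lower with siKLF4 in 4 of 4 pairs (-0.30 to -0.006, log2) and higher with siFN in 4 of 4 pairs (0.03 to 0.14). The share of all genes with such pairs was not computed, so nothing is read from these counts. The differences of -0.17 ± 0.11 and 0.07 ± 0.11 did not pass (limma, adjusted p = 1 and 0.993). Its medium difference was 0.01 ± 0.11 (adjusted p = 0.977).

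Sco1, the partner of Sco2 in copper delivery to the Cox2 subunit, ranged from 1.19 in SFM siNT to 1.78 in SFM siKLF4, with a median of 1.47. The other 6 libraries lay between 1.39 and 1.58. The interaction of Sco1 was 0.01 ± 0.19 (limma, adjusted p = 0.978), and it changed sign under quantile normalization (-0.12). Sco1, at chr11:67052670-67067070, is the only member with no exonic base shared with another gene.

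Cox11, which serves the copper site of the Cox1 subunit, stood on SFM matrix at 1.57 with siNT, 1.38 with siKLF4, 1.15 with siFN and 0.887 with both siRNAs. Its TCM values were 1.27, 1.15, 1.18 and 1.29 in the same order. On SFM matrix Cox11 was lower with siFN, with and without siKLF4, and its TCM values spread over less. Its interaction of 0.31 ± 0.15 did not pass (limma, adjusted p = 0.200), nor did its siFN difference of -0.14 ± 0.10 (adjusted p = 0.993).

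Heme a is made in consecutive steps by Cox10, the heme O synthase, and Cox15. Cox10 FPKM lay between 0.201 in TCM siNT and 0.265 in SFM siFN, all 8 values below the minimum for testing. Cox15 ranged from 1.65 in TCM siFN to 1.96 in TCM siKLF4-siFN, the narrowest spread of the 10. Its medium difference was 0.01 ± 0.09 (limma, adjusted p = 0.981) and its siKLF4 difference 0.05 ± 0.09 (adjusted p = 1).

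Over all 6917 genes, limma called 0 for the medium, 0 for siKLF4 and 0 for siFN (0% in each), and so no member. For Pet117, and for Pet100 in the medium, this is not read as a test result, since those values are descriptions. At an unadjusted p under 0.05 there were 464 genes for the medium (6.71%), 84 for siKLF4 (1.21%) and 84 for siFN (1.21%). Beside Pet117 and Pet100, the medium differences of the members ran from -0.04 (Surf1) to 0.22 (Cox20). The Cox20 value ran from 0.06 to 0.47 when 1 library was left out. With the medium by siFN term in the model limma also called 0 genes for the medium (1153 at an unadjusted p under 0.05), 0 for siKLF4 (180) and 0 for siFN (430). Calls of 0 do not show that a treatment had no effect. Where Cox20 and Sco2 are concerned, each of the 3 main differences averages pairs of opposite sign.

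Related genes were read from lists, and counts are of genes past the minimum. Among 15 other assembly and translation factors of cytochrome oxidase, none passed in any of the 4 contrasts (limma). Their median medium difference was -0.04 and their median interaction -0.21, with 11 of 15 below 0. Over all genes tested, 45.6% of interactions and 54.9% of medium differences were above 0. Of 13 nuclear-encoded subunits, 3 had medium differences above 0 and 10 below (median -0.07), none of which passed. In the interaction 1 of the 13 passed, below 0. It was Cox6a2, the heart and muscle form of its subunit, at 5.28 in SFM siKLF4-siFN, 4.34 in SFM siFN and 0.166 to 1.55 elsewhere (-2.52 ± 0.26, limma, adjusted p = 0.0375). It was past the expression minimum only through the SFM libraries with siFN, the group in which it is high, so its call supports nothing. The mitochondrially encoded subunits mt-Co1, mt-Co2 and mt-Co3 were listed at 0 in all 8 libraries, so the core itself could not be compared.

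Of 5 copper handling genes and 6 heme synthesis genes none passed in any contrast, with median interactions of -0.06 and -0.35. Mt2, a metallothionein, had the lowest interaction p of the copper genes (-1.21 ± 0.42, limma, adjusted p = 0.104), and Cpox that of the heme genes (-0.68 ± 0.22, adjusted p = 0.0899). Of 9 complex I assembly factors 1 passed in the interaction, Tmem126b, above 0 at 0.89 ± 0.19 (adjusted p = 0.0478). With a pseudocount of 0.1, and in 5 of 8 fits without 1 library, no gene at all passed, so the calls of Tmem126b and Cox6a2 were lost there too. On SFM matrix the FPKM of Tmem126b was 1.61 with siNT, 1.52 with siKLF4, 1.02 with siFN and 0.502 with both siRNAs. TCM matrix gave 1.01, 1.09, 1.67 and 1.49 in the same order. Its mean of 1.24 was past the expression minimum through the libraries in which it is high. These were SFM without siFN and TCM with siFN, so its call supports nothing. None of 6 assembly factors of complexes II, III and V passed, and all 6 had interactions below 0 (median -0.20).

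**Figure D5:**
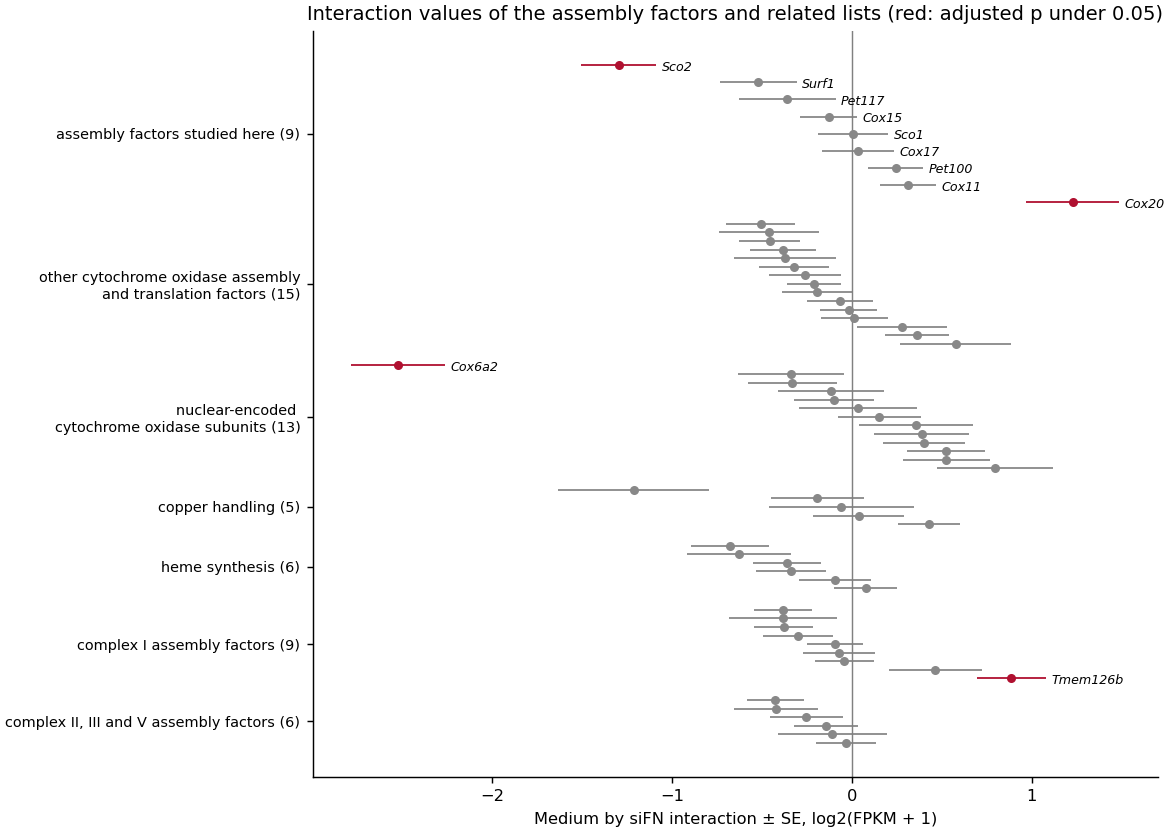
Medium by siFN interaction with its SE (log2 scale, x axis) for the 9 tested assembly factors and for the genes of 6 related lists, 1 point per gene, red where the adjusted p was under 0.05. Cox20 (1.23) and Sco2 (-1.30) lie on opposite sides; in the other lists Cox6a2 (-2.52) and Tmem126b (0.89) passed.

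The genes most like Pet117 over the 8 libraries, by Pearson's r of log2(FPKM + 1), were Nudc (0.976), Gripap1 (0.973) and Gtf2f1 (0.969). Nudc ran from 3.20 in SFM siNT to 4.89 in TCM siKLF4. Those most like Pet100 were Zfp830 (0.983), Grb2 (0.960) and Safb2 (0.956). Zfp830 stood between 10.8 and 13.8 on SFM matrix and between 16.1 and 18.1 on TCM matrix. Gene models without an official name were passed over. Each r rests on the same 8 libraries and is a description.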

How the data were processed

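RNA of B16-F10 cells was measured in 8 libraries, 1 per condition. The authors deposited FPKM values for 46477 rows named by gene symbol. STAR 2.4.1d, Partek and mm10 were used, per the submitters' processing notes; for the counting rule, annotation and strand setting, no source used here gives a record. Symbols were matched to GENCODE M21 of GRCm38 (90.2% of rows), the assembly of mm10.

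Depth was estimated per library as the read number that put most low values of single-transcript genes over 600 nt within 0.05 of a whole read (43.5% to 46.4% of values, against 10% by chance for a fixed number). The lowest number that came within 0.9 of the best share was taken.

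limma 3.58.1 (R 4.3.3, variance trend, two-sided, Benjamini-Hochberg over 6917 genes, 0.05) was fitted to log2(FPKM + 1) where the mean over libraries was 1 or more. The medium, siKLF4 and siFN were fitted additively, and the medium by siFN term was then added. Libraries sharing a level stand in for replicates. The labels name no replicate cultures, so p-values rest on the spread that each model left among the 8 libraries. This spread mixes noise, which may be technical, with any joint effects of treatments that the model leaves out. In the additive fit these include any medium by siFN difference. The script was tested on simulated data. All 10 members are named, with up to 4 genes of smallest p per list and the 3 most alike Pet117 and Pet100. The members and lists were chosen with earlier results of these data known.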

Additional observations from a re-analysis of the deposited data

Results flagged for a closer look

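Among the members and the related lists, the medium difference of 4 genes changed with siFN by the test of the interaction itself. Cox20 had an interaction of 1.23 (limma, adjusted p = 0.0444) and Sco2 of -1.30 (adjusted p = 0.0385). Of the related lists, the subunit gene Cox6a2 had -2.52 (limma, adjusted p = 0.0375) and the complex I assembly factor Tmem126b 0.886 (adjusted p = 0.0478). Both were past the expression minimum only through the libraries in which they are high, so neither call supports anything. These were 2 of 9 members, 1 of 13 subunits and 1 of 9 complex I assembly factors. The 15 other cytochrome oxidase factors and the 5 copper, 6 heme and 6 complex II, III and V genes had no call. Of all genes tested, 7.17% passed in this contrast, and nothing is read from the count of 4. None passed with a pseudocount of 0.1 or in 5 of 8 fits without 1 library.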

How the results depend on the processing

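No paired analysis was possible because the labels give no replicate numbers and each condition has 1 library. The interaction count of 496 genes became 0 with a pseudocount of 0.1 (2282 at an unadjusted p under 0.05), 14 without a filter, 251 at a mean FPKM of at least 5 and 1003 in protein-coding genes; the cause was not tested. Leaving out 1 library gave 0 to 2065. It gave 0 without TCM siFN, without TCM siKLF4-siFN, or without any SFM library other than SFM siFN (1371 to 1958 at an unadjusted p under 0.05), 51 without TCM siNT, 553 without TCM siKLF4 and 2065 without SFM siFN; these fits have fewer samples. The siFN count was 0 to 1 in such fits, with 1 without TCM siNT. The medium and siKLF4 counts were 0 in every fit run.

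The medium difference of Pet117 was 1.81 and that of Pet100 0.616 with a pseudocount of 0.1, and 0.925 to 1.19 and 0.341 to 0.449 without 1 library. Their direction held in all settings run. The Pet117 siKLF4 difference was 0.885 with that pseudocount. Small values changed sign. For the medium these were Cox11 (0.00156 with a pseudocount of 0.1, 0.0035 with libraries centred on their medians) and Cox15 (-0.00913 under quantile normalization). For siKLF4 it was Sco2 (-0.0111, quantile). For siFN they were Pet100 (0.0122 centred, 0.0396 quantile) and Sco1 (0.00391 and 0.0224), and for the interaction Sco1 (-0.121, quantile). Without 1 library the medium ranges were -0.0823 to 0.0431 (Cox11), -0.0317 to 0.051 (Cox15), -0.0251 to 0.0574 (Cox17), -0.0382 to 0.113 (Sco1), -0.233 to 0.208 (Sco2) and -0.131 to 0.0919 (Surf1). For siKLF4 they were -0.00301 to 0.494 (Cox20), -0.0361 to 0.0687 (Sco1) and -0.209 to 0.232 (Sco2). For siFN they were -0.0511 to 0.0504 (Pet100), -0.025 to 0.0522 (Cox15), -0.0922 to 0.059 (Sco1) and -0.0611 to 0.337 (Sco2). For the interaction they were -0.0744 to 0.143 (Cox17) and -0.193 to 0.21 (Sco1).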
